A study of Mus musculus with 2 samples.

Results

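Club and secretory airway cells of the mouse lung were picked out of all 8 libraries by their content of secretoglobin 1a1 (Scgb1a1, the main secreted protein of club cells). A barcode was taken when it had 500 or more detected genes, at most 20% of UMIs (unique molecular identifiers, 1 per captured RNA molecule) from mitochondrial genes, Scgb1a1 at 10% or more of its gene UMIs, and under 3 UMIs of the cilia genes Ccdc153 and Tmem212 together. The rule took 185 of the 11245 barcodes that passed the first 2 limits, or 1.65%, of 14048 barcodes in all. The cells came from C57BL/6JRj mice of 3 months (young) or 18 months (old) that had received saline (control) or 2.5 mg/kg lipopolysaccharide (LPS, a component of the bacterial outer membrane) 24 h earlier. Live lung cells positive for EpCAM, an epithelial surface protein, had been sorted. They were tagged per group with a hashtag antibody and pooled on a 10x Genomics 3' lane. The experiment had been done on 2 lanes. Each of the 4 groups therefore has 2 libraries, called 1 and 2 after the lane. The sources used here do not say how many mice a library holds, so p-values measure the spread between libraries. EpCAM sorting also leaves out cells that carry little of that protein, and the cells of 1 lane went through the droplets together.

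Club cells are non-ciliated secretory cells of the conducting airways. They are known for secreting secretoglobins, for detoxifying inhaled compounds through cytochromes such as Cyp2f2 and through aldehyde dehydrogenases and glutathione transferases, and for renewing themselves and ciliated cells after injury. LPS is sensed through Toll-like receptor 4 and its co-receptor Cd14, which feed the NF-kB pathway, and interferons induce antiviral and antigen-presentation genes in epithelium.

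The upstream DNA of 4 genes on which the results turn is shown for its letters: Ccl20, Saa3 and Retnla were higher after LPS and Cyp2f2 was lower. The windows come from RefSeq (GRCm38.p6), run 5′ to 3′ on the gene's strand and end before the first base that GENCODE M21 puts in the gene. Ccl20 is chr1:83116516-83116765 (+), Saa3 chr7:46715701-46715926 (-), Retnla chr16:48842359-48842550 (+) and Cyp2f2 chr7:27119705-27119908 (+). Capitals mark matches to the motifs searched on both strands.
Ccl20: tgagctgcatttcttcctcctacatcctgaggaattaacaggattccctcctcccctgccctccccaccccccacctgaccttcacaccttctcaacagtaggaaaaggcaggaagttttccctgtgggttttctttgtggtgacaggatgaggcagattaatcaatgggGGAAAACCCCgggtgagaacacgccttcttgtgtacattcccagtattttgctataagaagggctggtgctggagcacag
Saa3: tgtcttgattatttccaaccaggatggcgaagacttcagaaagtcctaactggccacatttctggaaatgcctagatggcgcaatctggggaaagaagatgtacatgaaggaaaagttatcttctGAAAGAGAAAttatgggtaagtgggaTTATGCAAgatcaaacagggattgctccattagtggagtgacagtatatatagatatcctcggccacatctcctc
Retnla: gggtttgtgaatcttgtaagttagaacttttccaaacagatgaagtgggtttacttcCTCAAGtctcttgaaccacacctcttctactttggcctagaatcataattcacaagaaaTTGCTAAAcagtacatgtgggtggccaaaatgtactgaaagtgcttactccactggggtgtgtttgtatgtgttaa
Cyp2f2: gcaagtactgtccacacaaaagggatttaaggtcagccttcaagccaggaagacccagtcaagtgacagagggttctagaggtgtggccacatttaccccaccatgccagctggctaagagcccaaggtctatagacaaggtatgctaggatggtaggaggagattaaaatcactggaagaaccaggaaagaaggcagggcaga
The motifs were NF-kB (GGG, then NN, then TTTCC), C/EBP (TTGCNNAA), IRF (TTTC, then NN, then TTTC), NKX2-1 (CTCAAG) and forkhead (TGTTTAC). Ccl20 holds an NF-kB match that begins 80 bases before the RefSeq start, Saa3 an IRF match 125 and a C/EBP match 99 bases before it, and Retnla an NKX2-1 match 193 and a C/EBP match 134 bases before it. No match lies in the Cyp2f2 window. Over the 250 bases upstream of 27025 genes, 1.65% hold the NF-kB letters, 10.8% the C/EBP, 3.46% the IRF, 15.2% the NKX2-1 and 3.54% the forkhead letters. Among genes called after LPS in these cells, the NF-kB letters lie upstream of 7 of 140 higher (5.0%) and 0 of 74 lower genes, beside 1.94% of the tested genes. The IRF letters lie upstream of 16 higher (11.4%) and 5 lower genes (6.76%), beside 4.13%. The C/EBP letters lie upstream of 19.3% of higher and 20.3% of lower genes beside 10.6% of tested genes, the NKX2-1 letters upstream of 13.6% and 18.9% beside 14.97%, and the forkhead letters upstream of 0.714% and 2.70% beside 2.19%. A match of letters is a description and no binding was measured.

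The libraries held 5 cells (young control 2) to 65 cells (old LPS 1), with summed depths of 84177 to 1412078 UMIs. The median cell had 19941 UMIs against 7291 in the 8557 alveolar type 2 (AE2) cells of the same libraries that serve for comparison (surfactant genes at 3% or more of UMIs, Scgb1a1 under 1%). Scgb1a1 made up a median of 54.1% of a cell's UMIs, at most 81.7%, and over 50% in 103 of 185 cells. The cells were chosen by these Scgb1a1 values, so no test of Scgb1a1 is reported. The gene stayed in the fits and in their scaling. Just inside the limit lay 8 cells at 10.2% to 10.8% and just outside 7 barcodes at 9.10% to 9.59%. Their median surfactant shares were 20.9% and 16.5%. Of the 185 cells, 26 had 5% or more surfactant UMIs, with a median Scgb1a1 share of 11.9%, and 9 had 3 or more leucocyte-gene UMIs. No barcode of these cells occurred in 2 libraries.

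The label was checked against Scgb3a1, Scgb3a2 and Cyp2f2, which the rule did not use. In control cells Cyp2f2 stood at a mean of 3808 CPM (UMIs of the gene scaled to a common library total, after TMM normalization) and Scgb3a2 at 12305 CPM, against 51.5 and 10.6 CPM in control AE2 cells. The totals kept Scgb1a1, which made up 42.8% to 60.3% of the summed UMIs of club and secretory cells. AE2 cells were normalized separately, so CPM of the 2 classes here and below are not on 1 scale. Scgb3a1 had a mean of 6369 CPM against 10.3 CPM, but only 89 of 185 cells had any UMI of it. Over all the cells, basal cell genes summed to 0.14, T cell genes to 0.04 and fibroblast genes to 0.02 per 10000 UMIs other than Scgb1a1. Alveolar type 1 genes summed to between 7.10 and 17.8 by library. Goblet cell genes summed to 32.5. Goblet genes lay between 0.299 and 18.4 in control and between 14.0 and 85.7 in LPS libraries. Ciliated cell genes were apart, at 4.11 to 9.28 in control and 0.648 to 1.98 in LPS libraries. Dendritic cell genes stood at 36.7 in old control 1 and at most 6.86 in the other libraries. AE2 genes summed to 456 per 10000, at 536 to 1586 in control and 189 to 686 in LPS libraries. Without the 26 surfactant-rich cells they summed to 209, at 134 to 408 in control and 172 to 360 in LPS libraries. In AE2 cells themselves that sum was 2856 to 3237 in control and 975 to 1344 in LPS libraries, so it is not a steady measure of AE2 RNA. The part of these other-type genes in the results was not tested. As a rough guide, an AE2 projection is given below for some genes: the CPM that would accompany the cells' Sftpc at the AE2 ratio of the same library. It is not a measured portion, and it exceeds the observed level for S100g in controls and for Cldn18 with LPS.

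**Figure D1:**
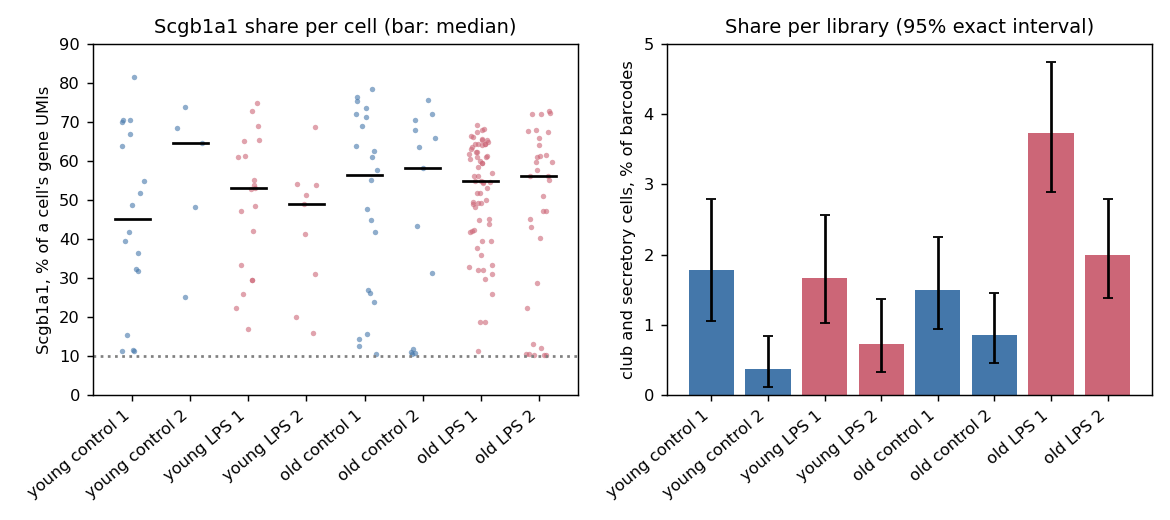
Left, Scgb1a1 as a percentage of each cell's gene UMIs by library (points are cells, bars are medians, the dotted line is the 10% limit). Right, the cells as a percentage of barcodes past the filters, with exact 95% binomial intervals; old LPS 1 is highest at 3.74% and young control 2 lowest at 0.362%.

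The share of club and secretory cells among barcodes was 1.78% and 0.362% in the young control libraries, 1.67% and 0.722% in the young LPS, 1.49% and 0.849% in the old control and 3.74% and 2.00% in the old LPS libraries. LPS and control libraries overlapped, and lane 1 was above lane 2 in every group. The mean was 2.03% ± 1.26 (SD, n = 4) with LPS and 1.12% ± 0.636 (SD, n = 4) in controls, a difference of 0.912 percentage points that did not pass a two-sided exact permutation test (p = 0.229, smallest possible 0.0286). Within lanes, LPS minus control was -0.110 and 0.360 points in young and 2.25 and 1.15 points in old mice. Old minus young was 0.887 points (exact permutation p = 0.257). These permutation tests did not use the pairing by lane. Because the rule rests on the Scgb1a1 share, a change in cell number and a change in Scgb1a1 per cell cannot be told apart. Summed Scgb1a1 was 52.1% and 60.3% of UMIs in young control, 49.1% and 42.8% in young LPS, 58.2% and 52.8% in old control and 54.1% and 54.6% in old LPS cells.

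Scgb3a1, a secretoglobin of the larger airways, divided the cells. Taking 50 per 10000 other UMIs as a limit, which was chosen after the values were seen, 56 of 185 cells (30.3%, exact 95% interval 23.7% to 37.4%) were above it and 9 cells lay within 2-fold of it. The libraries differed widely. On lane 1 the share above the limit was 33.3% in young control, 60.0% in young LPS, 13.6% in old control and 43.1% in old LPS cells, and on lane 2 it was 0%, 22.2%, 0% and 15.2% (0 of 5 and 0 of 13 cells in the controls, whose exact intervals reach 52.2% and 24.7%). It was higher with LPS in all 4 within-lane pairs, yet the difference of 23.4 points over libraries did not pass the exact permutation test (p = 0.114). Lane 1 exceeded lane 2 by 28.2 points (exact permutation p = 0.0857). The test of LPS against control did not use the pairing by lane.

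As a description of pooled cells without a test, the 9 Scgb3a1-high control cells were also higher in several other secreted airway proteins. Bpifa1, an antimicrobial surfactant protein of the airway, stood at 1507 per 10000 other UMIs in them against 0.105 in the 49 other control cells. Reg3g, a bactericidal lectin, stood at 81.8 against 0.14, and Ltf (lactoferrin) at 69.8 against 0.14. Bpifb1 stood at 43.5 against 0.91, the gel-forming mucin Muc5b at 7.47 against 0.21, and Agr2, a disulfide isomerase needed for mucin folding, at 9.22 against 0. The 49 other cells were higher in Sftpc, at 761 against 8.99. These sums keep the surfactant-rich cells, of which the young and old control libraries held 4, 1, 3 and 6. Their part in the Sftpc difference was not tested. All 9 Scgb3a1-high control cells came from lane 1. In the 47 Scgb3a1-high LPS cells Reg3g stood at 235 against 2.13 in the 80 others, Muc5b at 24.5 against 2.07, and the trefoil factor Tff2 at 49.1 against 3.83.

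**Figure D2:**
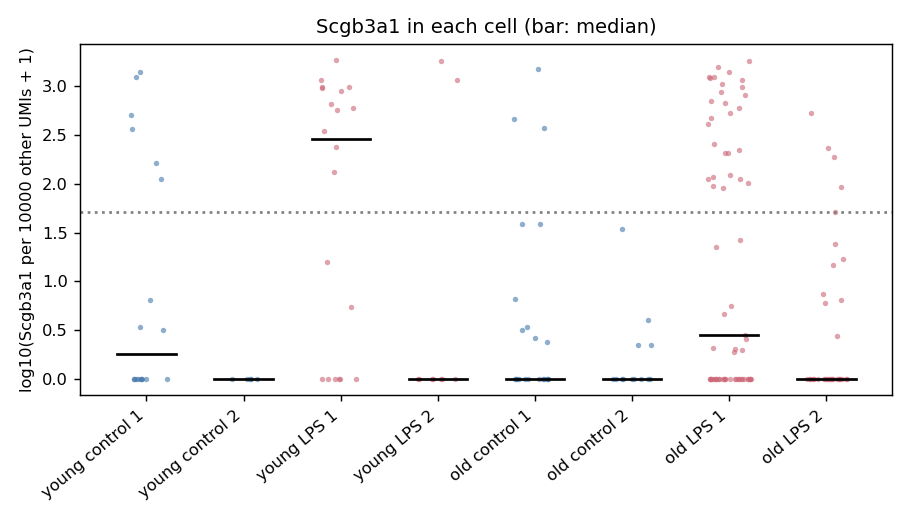
Scgb3a1 in each cell as log10 of UMIs per 10000 other UMIs plus 1, by library; bars are medians and the dotted line is the limit of 50. Cells fall into a group near 0 and a group above the line, and the upper group is fuller on lane 1 and in LPS libraries.

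Which genes changed with LPS was tested on the UMIs summed over the cells of each library, with edgeR's quasi-likelihood test and Benjamini-Hochberg adjusted p-values (threshold 0.05) over 1948 genes. The filter on low counts can pass a gene through its LPS libraries alone. Counts of rising genes among those tested, also within the lists below, are therefore partly set by the filter. Over both ages 180 genes were higher (9.24% of those tested) and 99 lower (5.08%), and the log2 change passed 1 in size for 154 and 59 of them. The sign was the same in all 4 within-lane pairs for 274 of the 279. These pairs are the libraries that gave the calls, so the count describes the calls and adds no separate support. DESeq2 split its 165 calls into 129 higher and 36 lower, and with the lane as a block edgeR called 427. Among genes tested, 390 of 1948 had LPS and control libraries that did not overlap.

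Among 21 tested genes of club cell products 7 fell and 2 rose, with a median log2 change of -0.95 beside -0.01 over all tested genes. Those that fell were Cyp2f2, Aldh1a1, Cbr2, Gsta3, Tst, Pon1 and Kcnk2, and those that rose were Hp and the collectin Sftpd. Without the Scgb3a1-high cells 6 of 17 tested genes fell and 2 rose, and the median was nearer to no change, at -0.25. Without the surfactant-rich cells 10 of 21 fell and 1 rose, with a median of -1.01. The Kcnk2 call was lost in 10 of 19 settings. Cyp2f2, which activates and clears inhaled aromatic compounds, stood at 4022, 3589, 3841 and 3779 CPM in the young and old control libraries and at 734, 792, 662 and 1909 CPM in the LPS libraries. The groups did not overlap. Cyp2f2 fell by 1.94 ± 0.31 (SE) on the log2 scale (adjusted p = 0.00645). That call was lost when any of the 4 young libraries was left out. Cbr2, a carbonyl reductase of club cells, was at 6198, 6523, 4790 and 5066 CPM in controls and at 2400, 2382, 1331 and 2906 CPM with LPS. It fell by 1.31 ± 0.22 (adjusted p = 0.00201), without overlap, under every setting tried. Scgb3a2 was at 19905, 5968, 14922 and 8424 CPM in controls and 4119, 2584, 2356 and 3741 CPM with LPS. The groups were apart, and the log2 difference of -1.94 ± 0.50 missed the threshold (adjusted p = 0.0735). It passed in 5 of 19 other settings, among them the lane block (adjusted p = 0.0377), DESeq2 (adjusted p = 0.000517), and edgeR without the surfactant-rich cells (adjusted p = 0.036) or without the Scgb3a1-high cells (adjusted p = 0.0261). Scgb3a1 (chr11:49663610-49665118, mm10) ranged from 0 to 18098 CPM in controls and from 2373 to 32885 CPM with LPS, and its log2 difference of 1.60 ± 2.13 did not pass (adjusted p = 0.704).

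Of 23 tested genes of xenobiotic metabolism 10 fell and none rose (median log2 change -0.99). Aldh1a1, which oxidises retinal and other aldehydes, was at 1190, 840, 565 and 383 CPM in controls and at 203, 166, 184 and 241 CPM with LPS. It fell by 1.81 ± 0.19 (adjusted p = 4.21e-05). The control levels were more spread than the LPS levels, and the 2 groups were apart. Gstm1, a glutathione transferase, fell by 1.88 ± 0.24 from a mean of 417 to 116 CPM (adjusted p = 0.000176). Cyb5a, an electron donor of cytochromes P450, fell by 1.17 ± 0.17 from 836 to 371 CPM (adjusted p = 0.000502). The others called were Cyp2f2, Cbr2, Cyp4b1, Por (the reductase that serves cytochromes P450), Gsta3, Gstm2 and Ces1d. The Cyp4b1 call was lost in 10 of 19 settings, among them those without the surfactant-rich and without the Scgb3a1-high cells, and the Ces1d call in 4, DESeq2 among them. With the lane as a block 12 genes of the list fell and 1 rose. Outside that list, the mitochondrial aldehyde dehydrogenase Aldh2 fell by 1.81 ± 0.21 from 589 to 175 CPM (adjusted p = 7.35e-05), and catalase (Cat), which removes hydrogen peroxide, by 1.90 ± 0.44 (adjusted p = 0.0276). The Cat call was lost without young LPS 1, without old LPS 1 and without the tenth of cells with the most UMIs. The antioxidant list as a whole was mixed, with 3 of 22 tested genes higher (Sod2, Gsr and Fth1) and 4 lower (Cat, Gstm1, Sqstm1 and Ftl1), or 6 and 6 with the lane as a block.

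Of 38 listed antimicrobial and acute phase genes 19 were tested, of which 11 rose and none fell (median log2 change 2.47). With the lane as a block 12 rose and 1 fell. Lcn2, which withholds iron from bacteria, was at 335, 769, 490 and 679 CPM in controls and at 22775, 19822, 29751 and 15256 CPM with LPS. It rose by 5.28 ± 0.38 (adjusted p = 0.00019). Its AE2 projection was 4962 CPM beside a mean of 21901 CPM with LPS. Saa3, an acute phase apolipoprotein, went from a mean of 69.9 ± 32.4 to 9839 ± 3619 CPM (SD, n = 4), a log2 change of 7.19 ± 0.42 (adjusted p = 5.38e-05), and its AE2 projection was 829 CPM. Retnla, a secreted resistin-like protein linked to type 2 responses, was at 264, 356, 146 and 690 CPM in controls and at 3048, 9951, 7822 and 8311 CPM with LPS. It rose by 4.34 ± 0.75 (adjusted p = 0.0314), with an AE2 projection of 1.07 CPM. The Retnla call was lost in 8 of 19 settings, with adjusted p up to 0.163: without a filter on low counts, without the surfactant-rich cells (3.96, adjusted p = 0.0692), and without any 1 of the 4 young or the 2 old LPS libraries. It held with the lane block (adjusted p = 0.00279). Pigr, the receptor that carries IgA across epithelium, rose by 2.91 ± 0.60 from 150 to 1125 CPM (adjusted p = 0.044), and 9 of 19 settings did not call it. Hp (haptoglobin) rose by 1.14 ± 0.23 (adjusted p = 0.0105), and by 0.76 without the surfactant-rich cells (adjusted p = 0.174). Cfb (complement factor B) had 1 UMI in controls and 307 with LPS, a ratio of 95.9 (counting interval 17.1 to 3799). Orm1 was at a mean of 235 CPM with LPS, beside an AE2 projection of 173 CPM.

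Of 43 listed chemokine, cytokine and growth factor genes 8 were tested, of which 3 rose (Cxcl1, Ccl20 and Cxcl16) and none fell. With the lane as a block 6 rose and 1 fell, and DESeq2 called 6 of 10 higher. Ccl20, which draws CCR6-bearing lymphocytes and dendritic cells, was at 14.2, 0, 71.1 and 54.8 CPM in controls and at 4268, 2578, 5670 and 2413 CPM with LPS. It rose by 7.17 ± 0.54 (adjusted p = 0.000569), with an AE2 projection of 40.2 CPM, and kept the call in all 19 settings. The neutrophil chemokine Cxcl1 had 3 UMIs in controls and 682 with LPS, a ratio of 71.0 (counting interval 24.2 to 345). Its call was lost in 7 of 19 settings: without the Scgb3a1-high cells (adjusted p = 0.183) and without any 1 of the 4 young or the 2 old control libraries. Cxcl5 went from a mean of 94.1 to 1390 CPM without passing (adjusted p = 0.0587).

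**Figure D3:**
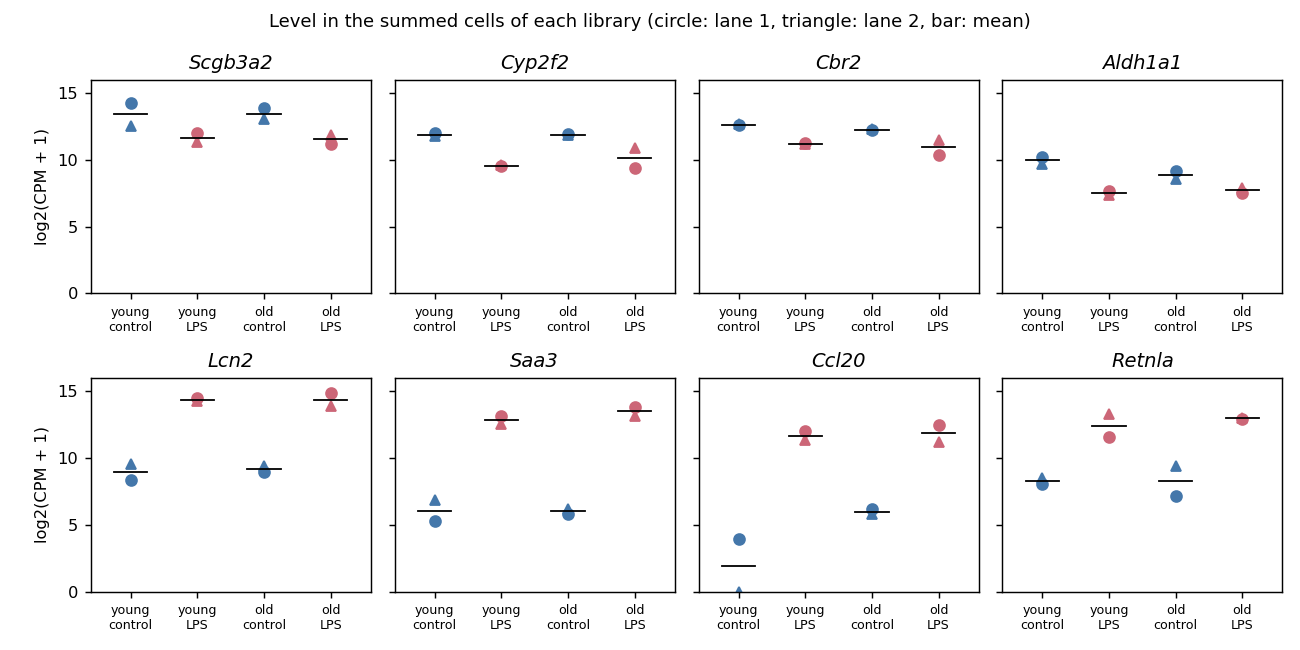
Level of 8 genes as log2 of CPM plus 1 in the summed cells of each library (circle, lane 1; triangle, lane 2; bar, mean of the group). LPS libraries lie below control libraries for Scgb3a2, Cyp2f2, Cbr2 and Aldh1a1, and above them for Lcn2, Saa3, Ccl20 and Retnla.

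Interferon response genes rose in 18 of 19 tested, and all 14 tested genes of MHC class I and the immunoproteasome rose, with median log2 changes of 3.83 and 2.22. The lists held 48 and 20 genes, and the rest did not pass the filter on low counts, which favours genes that are high with LPS. With the 4 interferon genes that had no control UMI (Gbp2, Gbp3, Ifit3 and Rtp4) set to their lower bound, that list's median was 3.46. Without the surfactant-rich cells the counts were 18 of 18 and 12 of 13. Gbp2, a guanylate-binding protein, had 0 UMIs in controls and was at 410, 540, 55.3 and 68.3 CPM with LPS, at least 37.4-fold higher against a floor of 3 counts over the control group. Isg15, a ubiquitin-like modifier, had 3 UMIs in controls and 441 with LPS, a ratio of 45.9 (counting interval 15.6 to 223). H2-K1, which presents peptides, rose by 1.61 ± 0.19 from 236 to 722 CPM (adjusted p = 0.0001), with an AE2 projection of 179 CPM. B2m, its light chain, rose by 2.16 ± 0.32 (adjusted p = 0.00171) and Psmb8 by 2.68 ± 0.28 (adjusted p = 3.93e-05). None of 6 tested MHC class II genes was called, and Cd74, their chaperone, was at 721 CPM in controls and 664 CPM with LPS. These means join opposite directions by age. The median log2 change of the 6 genes was 1.32 in young mice, with 6 above 0, and -2.81 in old mice, with 0 above 0. AW112010, a transcript of interferon-exposed cells, rose by 5.14 ± 0.43 from 103 to 3568 CPM (adjusted p = 0.000662).

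In the NF-kB and Toll-like receptor list of 29 genes, 6 of 7 tested genes rose (Tnfaip2, Nfkbia, Cd14, Sod2, Relb and Icam1). Cd14 was at 109, 57.0, 92.4 and 87.6 CPM in controls and 580, 755, 790 and 513 CPM with LPS, and rose by 2.87 ± 0.23 (adjusted p = 5.61e-06). Nfkbia, the inhibitor that NF-kB induces, rose by 3.35 ± 0.38 (adjusted p = 0.000471), and was not called without the Scgb3a1-high cells, where its log2 change was 2.92 (adjusted p = 0.106). Among airway transcription factors 2 of 20 rose and 3 fell, or 4 and 5 with the lane as a block, and DESeq2 called none of 27 lower. Cebpd rose by 2.93 ± 0.28 (adjusted p = 1.95e-05), and Nkx2-1, which specifies lung epithelium, fell by 1.31 ± 0.36 (adjusted p = 0.0311), with an AE2 projection of 45.9 CPM beside 117 CPM in controls. The Nkx2-1 call was lost in 7 of 19 settings, DESeq2 among them. Of 20 tested genes of folding in the endoplasmic reticulum 14 rose and none fell, with a median of 0.97. DESeq2 called 9 of 20, and 6 of 16 rose without the Scgb3a1-high cells. Hspa5, the main chaperone there, rose by 1.35 ± 0.25 (adjusted p = 0.0045). None of 55 nuclear oxidative phosphorylation genes was called (median 0.10), and 1 was called higher with the lane as a block.

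**Figure D4:**
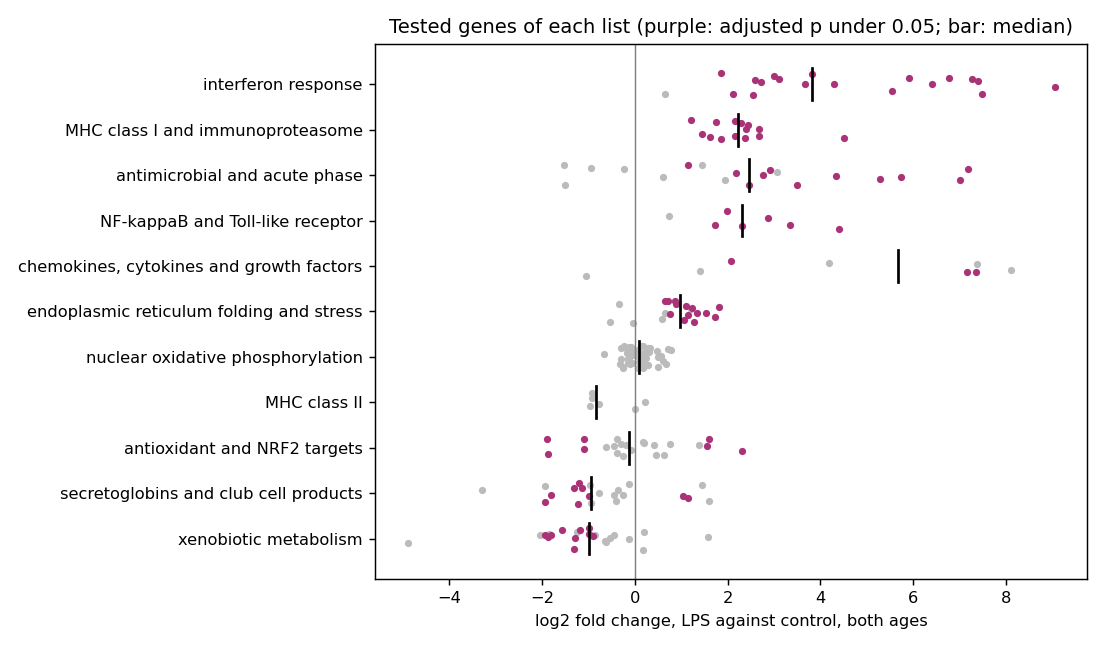
Log2 fold change with LPS over both ages for the tested genes of 11 lists (purple, adjusted p under 0.05; grey, not called; bar, median). Interferon and MHC class I genes lie to the right of 0, antimicrobial genes mostly so (15 of 19), and xenobiotic genes mostly to the left.

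Several of the larger falls were in genes that AE2 cells hold at higher levels. S100g, a calcium-binding protein, fell by 2.76 ± 0.53 from 218 to 32.6 CPM (adjusted p = 0.0144) with AE2 projections of 246 and 27.6 CPM, and was not called without the surfactant-rich cells (adjusted p = 0.269). Cldn18, a tight junction claudin, fell by 2.87 ± 0.65 from 109 to 13.9 CPM (adjusted p = 0.0276) with AE2 projections of 92.6 and 26.4 CPM. Its call was lost in 5 of the 18 settings that gave it a value. Without the surfactant-rich cells it was under the filter on low counts and was not tested. For Cyp2f2 and Aldh1a1 the AE2 projections were at most 7.23 and 0.34 CPM.

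By age, 69 genes were higher (3.54%) and 25 lower (1.28%) with LPS in young mice, and 76 higher (3.9%) and 11 lower (0.565%) in old mice. With the lane as a block these totals of 94 and 87 became 223 and 232. Aldh1a1 fell by 2.46 ± 0.28 in young (adjusted p = 0.00021) and by 1.17 ± 0.26 in old mice (adjusted p = 0.021). Ccl20 rose by 8.35 ± 0.84 in young (adjusted p = 0.00411) and 5.98 ± 0.67 in old mice (adjusted p = 0.00814). Neither difference between the ages passed (interaction adjusted p = 0.948 and 1). The median old minus young difference of the LPS effect was -0.86 over the interferon list, with 3 of 19 tested genes above 0. Over MHC class I and the immunoproteasome it was -0.92, with 2 of 14 above 0, beside 0.03 over all tested genes. For all genes together, edgeR's interaction test called 0 genes higher (0%) and 0 lower (0%), with 61 at an unadjusted p under 0.05, and DESeq2 called 0. Old against young over both treatments likewise gave 0 higher (0%) and 0 lower (0%) by edgeR, with 73 at an unadjusted p under 0.05, and 0 by DESeq2. With the lane as a block edgeR called 4 genes by age.

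Whether the LPS effect differed from that in AE2 cells of the same libraries was tested over 10678 genes. edgeR called 57 larger (0.534%) and 33 smaller (0.309%). In that fit 97.9% of genes took their spread from the trend over all genes alone, which makes p-values small. limma on the within-library differences was added after this was seen. A first version, with its spread trend on the mean difference, called 0 genes. A second version, chosen after that 0 was seen, put the trend on the cells' mean level and called 11 genes, of which 10 were also edgeR calls. The genes below are edgeR calls, and which of them limma called depends on that choice.

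Trf (transferrin, the iron carrier; chr9:103204001-103230444) stood at 175, 313, 313 and 383 CPM in control and 1466, 1209, 1979 and 1804 CPM in LPS club and secretory cells, and at 232 and 198 CPM in AE2 cells. The groups of club and secretory cells were apart. Its log2 change exceeded that of AE2 cells by 3.07 ± 0.22 by edgeR (adjusted p = 7.97e-41) and 3.04 ± 0.24 by the second limma version (adjusted p = 0.000641). Fth1, the ferritin heavy chain that stores iron, went the other way. It rose by 1.55 ± 0.21 in club and secretory cells, from 3465 to 10355 CPM with an AE2 projection of 3710 CPM, and by 3.83 ± 0.09 in AE2 cells. The difference was -1.98 ± 0.17 by edgeR (adjusted p = 5.27e-28) and -1.98 ± 0.16 by the second limma version (adjusted p = 0.000641). Hp, Cp (ceruloplasmin) and Ifitm3, an antiviral membrane protein, also rose less than in AE2 cells, by -1.99 ± 0.17, -2.36 ± 0.25 and -2.43 ± 0.24, with second-version limma adjusted p-values of 0.000368, 0.00472 and 0.0202. Cyp4b1, a fatty acid and xenobiotic cytochrome, had a log2 change of -1.57 in club and secretory cells, where 1 LPS library overlapped the controls, and 1.64 in AE2 cells, a difference of -2.98 ± 0.32 (second limma version, adjusted p = 0.0188). The peroxidase Prdx6 did not pass in club and secretory cells (-0.46, adjusted p = 0.0698) and rose by 1.90 in AE2 cells, a difference of -2.02 ± 0.20 (second limma version, adjusted p = 0.000641).

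Ccl20 was called by edgeR alone, with a difference of 2.90 ± 0.32 (adjusted p = 5.07e-17) that missed the threshold in the second limma version (3.80 ± 0.77, adjusted p = 0.225). Retnla rose in club and secretory cells and fell by 1.38 in AE2 cells, from 42.9 to 17.4 CPM. Its difference of 6.10 ± 0.83 passed neither edgeR (adjusted p = 0.131) nor the second limma version (adjusted p = 0.0752). For Cyp2f2 the log2 change was -1.94 in club and secretory and -1.66 in AE2 cells, and the fitted difference was -0.03 ± 0.22 (adjusted p = 1).

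**Figure D5:**
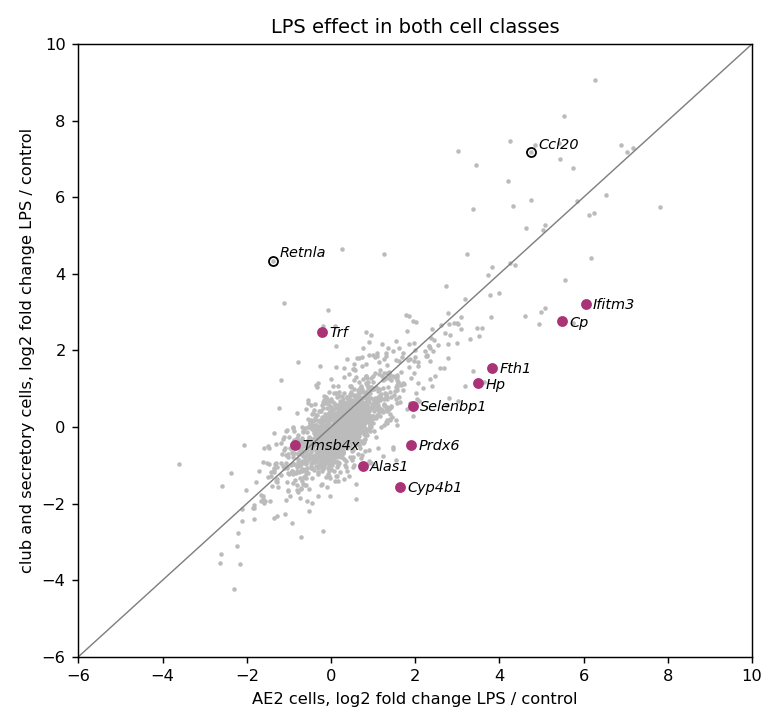
Log2 fold change with LPS in AE2 cells (horizontal) and in club and secretory cells (vertical), each point a gene tested in both; the line marks equal change. Purple genes were called different by edgeR and by the second limma version; Ccl20 and Retnla (open circles) lie above the line without passing both.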

How the data were processed

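The authors deposited 8 tables of raw UMI counts per gene and barcode, 1 per group and lane, with hashtag counts in extra rows, which were left out of totals. The submitters' processing notes name Cell Ranger 3.1.0, STAR, bcl2fastq, Seurat and mm10, with no role or order. Counts were summed over the selected cells of each library and tested with edgeR 4.0.16 (filterByExpr, TMM, quasi-likelihood, 4 groups in 1 fit, common biological coefficient of variation 0.288), with DESeq2 and limma as alternatives. The comparison with AE2 cells kept the library as a block. Doublets were not called. Cells with 5% or more surfactant UMIs were left out as an alternative. Members, gene lists and the rule for named genes were chosen with earlier results of these data known. Named genes were mostly the 12 largest called changes in each direction over both ages (6 in other comparisons) with a mean of at least 100 CPM and 1 sign in the within-lane pairs, up to 5 called genes of each list, and the markers. Cxcl5, Agr2, Reg3g, Ltf, Bpifa1, Bpifb1 and Sftpc lie outside that rule and were chosen after their values were seen. Each lane is a separate sample, and the lanes were taken as replicates. Whether they hold different mice was not established here. Deviations from group means correlated within lanes in all 6 pairs of groups (0.140 to 0.425), so the lane pairs the libraries. The main fit and the permutation tests left that pairing out, and edgeR with the lane as a block is given as an alternative. A result that missed its threshold there may depend on that choice. Intervals and floors cover counting error only. On simulated data for LPS against control over both ages (1725 genes), the fit recovered 34.8% of 2-fold, 94.0% of 4-fold and 98.0% of 8-fold changes. Of its calls, 4.17% were false. The simulated counts took their spread from this same fit, with no lane effect and no difference in cell mix between libraries. These rates therefore do not measure errors in the real libraries.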

Additional observations from a re-analysis of the deposited data

Results flagged for a closer look

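H2-Ab1, an MHC class II chain, went up with LPS in both within-lane pairs of young mice and down in both of old mice. Its level was 132 and 42.7 CPM in young control, 225 and 141 CPM in young LPS, 760 and 60.3 CPM in old control and 59.3 and 55.0 CPM in old LPS libraries. The old minus young difference of the LPS effect was -3.77 ± 1.75 on the log2 scale and did not pass edgeR's interaction test (adjusted p = 1). Over the 6 tested MHC class II genes the median of that difference was -3.88, with 0 above 0 and 0 called. Old control 1, the high library, also had the highest summed level of dendritic cell genes, at 36.7 per 10000 UMIs other than Scgb1a1 against 2.07 to 6.86 in the others, and of leucocyte genes, at 11.6 against 0.122 to 3.12. Their part in the result was not tested.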

How the results depend on the processing

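Of 69 called named genes, 40 kept the call in every setting that gave them a value (Cxcl16 had none without the Scgb3a1-high cells), 0 turned direction, and leaving out young LPS 1 lost the most (19). Over both ages 279 genes were called. DESeq2 called 165, and its median over all genes was -0.18 (log2) beside -0.01. The replicate block (lane) gave 427, leaving out the Scgb3a1-high cells 178 (chosen after seeing the data), and leaving out 1 library 154 to 303, lowest without young LPS 1 (154), old LPS 1 (158) and young control 1 (184). In young mice (94) no filter on low counts gave 168, the lane block 223 and leaving out 1 library 47 to 132. In old mice (87) no filter gave 182, the block 232, a Scgb1a1 limit of 5% 150, leaving out surfactant-rich cells 134 and leaving out 1 library 41 to 127. By age (0) no filter and the block each gave 4, and leaving out 1 library 0 to 1. For the interaction (0) no filter gave 3 and leaving out 1 library 0 to 5. Against AE2 cells (90) leaving out Scgb3a1-high cells gave 58, the first limma version 0, the second 11, and leaving out 1 library 46 to 105. The difference in cell share (0.912 points) was 0.344 to 1.35 without 1 library. Young control 2, with 5 cells and 84177 UMIs, limits the depth. The causes were not tested.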
